A study of Mus musculus with 8 samples.

Results

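Chemokines and their receptors were read out in whole-brain lysates of adult male mice, and 52 of the 19938 genes measured belong to this family by the rule used here. The rule took every probe set that the platform annotation pairs with 1 gene symbol made of Ccl, Cxcl, Ccr or Cxcr and a number, and added Cx3cl1, Xcl1, Xcr1, Ackr1 and Ackr3. Where a gene had several probe sets, the brightest on average over the 8 arrays stood for it. The 52 genes are 34 ligands (19 CC, 13 CXC, Cx3cl1 and Xcl1) and 18 receptors (9 CC, 7 CXC or XC, and the atypical receptors Ackr1 and Ackr3). The fractalkine receptor Cx3cr1 lies outside the rule and is given beside the family below.

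The study asked what a lack of tumour necrosis factor (TNF), an inflammatory cytokine, does to the brain. RNA of 4 biological replicates labelled TNF-/- and 4 labelled TNF+/+ C57BL/6 (wild type) was hybridised to 8 Affymetrix Mouse Gene 1.0 ST arrays, which carry several short probes along each gene. All mice were males aged 2 to 4 months, with no treatment listed. The labels give neither the TNF-/- allele nor the strain it was kept on, and they do not say whether a replicate is 1 animal or a pool, so p-values here measure the spread between these samples.

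Chemokines are small secreted proteins that guide moving cells. They act through receptors coupled to inhibitory G proteins, while atypical receptors bind the ligands without that signal and remove or carry them. TNF acts through the transcription factor NF-kB, which switches on many inflammatory chemokine genes, so these genes are classic readouts of TNF action. In the resting brain the family is known best for Cx3cl1, which neurons make and microglia sense through Cx3cr1, and for Cxcl12 and its receptor Cxcr4, which guide migrating neurons and precursors.

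The DNA upstream of the genes was searched for short motifs. RefSeq (GRCm38.p6) gave the 250 bases before the start of 38 of the 52 genes, in 40 windows. The NF-kB consensus, searched on both strands, was found in 9 of these 40 windows (22.5%) and in 5% of all 32851 windows of the same length. The 9 genes are the ligands Cxcl1, Cxcl2, Cxcl3, Cxcl10, Ccl1, Ccl9 and Ccl20 and the receptors Ccr3 and Ccr6. Of these, 5 ligands that are textbook NF-kB targets follow, 5' to 3', with the consensus in capitals.

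Cxcl1, chr5:90890995-90891244, plus strand: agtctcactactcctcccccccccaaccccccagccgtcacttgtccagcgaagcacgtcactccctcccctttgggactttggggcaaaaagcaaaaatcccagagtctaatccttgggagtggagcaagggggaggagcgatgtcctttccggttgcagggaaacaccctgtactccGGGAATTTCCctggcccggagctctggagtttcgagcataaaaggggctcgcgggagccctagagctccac
Cxcl2, chr5:90903649-90903898, plus strand: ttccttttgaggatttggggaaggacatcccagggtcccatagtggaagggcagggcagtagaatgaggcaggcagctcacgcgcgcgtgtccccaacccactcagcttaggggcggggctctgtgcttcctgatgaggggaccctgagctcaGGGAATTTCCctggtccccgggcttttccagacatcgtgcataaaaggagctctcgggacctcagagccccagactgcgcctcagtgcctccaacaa
Cxcl3, chr5:90785851-90786100, plus strand: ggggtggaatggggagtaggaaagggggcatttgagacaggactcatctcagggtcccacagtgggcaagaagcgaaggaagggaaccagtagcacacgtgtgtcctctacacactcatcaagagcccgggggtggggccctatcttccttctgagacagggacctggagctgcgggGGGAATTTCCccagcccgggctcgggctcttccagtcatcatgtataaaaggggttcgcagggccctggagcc
Cxcl10, chr5:92348890-92349139, minus strand: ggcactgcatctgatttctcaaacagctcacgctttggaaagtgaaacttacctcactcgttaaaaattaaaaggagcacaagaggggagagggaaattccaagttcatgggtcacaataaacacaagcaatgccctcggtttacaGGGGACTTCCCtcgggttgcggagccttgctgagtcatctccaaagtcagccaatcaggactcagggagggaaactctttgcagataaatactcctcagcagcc
Ccl20, chr1:83116516-83116765, plus strand: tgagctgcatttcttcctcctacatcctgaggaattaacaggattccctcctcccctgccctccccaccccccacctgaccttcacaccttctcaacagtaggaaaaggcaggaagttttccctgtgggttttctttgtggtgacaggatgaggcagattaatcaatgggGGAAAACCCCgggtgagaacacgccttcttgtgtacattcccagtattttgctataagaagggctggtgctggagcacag

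Cxcl1, Cxcl2 and Cxcl3, which attract neutrophils and lie in 1 cluster on chromosome 5, carry the same 10 bases, GGGAATTTCC, starting 71, 97 and 73 bases before the gene. In Ccl20, whose product attracts cells with Ccr6, the match starts 80 bases before the gene. Cxcl10 holds 2 matches that overlap within the single stretch GGGGACTTCCC. A match is a description of these letters and not a measured binding site. Of the 6 genes found bright in brain here, 3 hold a GC box (GGGCGG on either strand) and follow with it in capitals.

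Cx3cl1, chr8:94771930-94772179, plus strand: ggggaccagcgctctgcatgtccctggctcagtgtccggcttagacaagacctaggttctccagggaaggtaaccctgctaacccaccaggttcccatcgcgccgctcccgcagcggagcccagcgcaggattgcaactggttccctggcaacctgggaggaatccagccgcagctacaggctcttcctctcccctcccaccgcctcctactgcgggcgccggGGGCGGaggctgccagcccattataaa
Cxcl12, chr6:117168285-117168534, plus strand: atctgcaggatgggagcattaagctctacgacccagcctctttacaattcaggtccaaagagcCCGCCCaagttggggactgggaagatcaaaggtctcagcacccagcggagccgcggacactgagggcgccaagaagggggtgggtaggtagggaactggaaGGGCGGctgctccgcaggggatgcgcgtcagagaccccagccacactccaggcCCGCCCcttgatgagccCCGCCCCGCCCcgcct
Cxcr4, chr1:128592300-128592549, minus strand: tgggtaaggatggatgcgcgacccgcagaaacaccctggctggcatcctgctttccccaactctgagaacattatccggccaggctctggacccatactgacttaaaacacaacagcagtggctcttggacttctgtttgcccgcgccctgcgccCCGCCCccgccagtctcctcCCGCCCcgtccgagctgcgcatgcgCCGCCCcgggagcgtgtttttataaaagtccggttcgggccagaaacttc

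Cxcl12 holds 5 GC boxes, of which the last pair share a base, Cxcr4 holds 3 and Cx3cl1 holds 1. The 7 windows with this motif are 17.5% of the family's, against 32.7% of all windows. The dinucleotide CG, dense at promoters of broadly used genes, occurs 14 times in the windows of Cx3cl1 and Cxcl12, 16 times in that of Cxcl14 and 19 times in that of Cxcr4. Ccl25 has a pair of windows, with 45 and 0. The median is 3 over the family's windows and 6 over all windows. Ackr1, the gene with the largest difference between the groups, has 3 and none of the 4 motifs searched (the 2 above, TATAAA, which 30% of the family's windows and 12.4% of all windows hold, and AGATAA, with 15% and 9.99%, both also read on both strands), so its window is printed without capitals.

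Ackr1, chr1:173333504-173333753, minus strand: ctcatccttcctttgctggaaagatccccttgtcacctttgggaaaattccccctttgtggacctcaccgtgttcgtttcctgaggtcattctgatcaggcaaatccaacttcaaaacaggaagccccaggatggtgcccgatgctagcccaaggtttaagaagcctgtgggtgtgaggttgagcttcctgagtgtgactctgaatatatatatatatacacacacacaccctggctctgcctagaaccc

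Tnf, the gene named in the genotype, had more signal where it should be missing, so every direction here is that of arrays as labelled. The log2 signal of Tnf was 5.67, 5.87, 5.92 and 6.21 in the arrays labelled TNF-/- and 4.48, 4.93, 4.24 and 4.47 in those labelled TNF+/+, higher in all 4 of the first group by 1.39 ± 0.16 on average (SE; limma, adjusted p = 0.0278). The sources used here do not say where its probes lie relative to the deleted part, and probes outside that part check nothing. Array medians lay between 5.03 and 5.11. TNF+/+ arrays 3 and 4 stood apart on the first principal component, and TNF+/+ array 1 had a mean of 7.79 over 8 cerebellum genes against 6.37 to 6.53 in the other arrays. Markers of neurons (7 of 7 measured), astrocytes (6 of 6) and oligodendrocytes (5 of 5) were above the median of every array, as a brain label requires, while those of T cells (5), B cells (4) and neutrophils and monocytes (7) were below it in all 8 arrays. The oligodendrocyte mean was 9.49 to 9.60 under TNF-/- and 9.67 to 10.02 under TNF+/+, with all 5 genes lower under TNF-/- and none passing the test. That of 9 meningeal fibroblast genes was 6.49 to 6.55 and 6.15 to 6.40, with all 9 higher as deposited, 8 after quantile normalization, and none passing.

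Most of the family was dim. Of the 52 genes, 6 (11.5%) lay above the median of all probe sets in all 8 arrays, 1 lay above it in some arrays, and 45 (86.5%) lay below it in all 8. Over all 19938 genes, 51.2% lay above in all 8 arrays and 44.2% below in all 8. A probe set's signal also depends on its probes, so this sorts probe sets and does not rank transcripts, and the files hold no detection call for a low signal. The 6 are the ligands Cx3cl1, Cxcl12, Cxcl14 and Ccl25 and the receptors Cxcr4 and Ackr1. None of the 9 CC receptors is among them. The other 45 ran from 3.28 to 4.96 over all arrays, where the 25th percentile of an array was 3.95 to 4.04.

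Cx3cl1, or fractalkine, is tethered to neurons and shed from them. Its log2 signal was 9.83, 9.75, 9.75 and 9.63 in the arrays labelled TNF-/- and 9.73, 9.78, 9.86 and 9.63 in those labelled TNF+/+. The groups overlapped almost wholly. The difference, TNF-/- minus TNF+/+, was -0.01 ± 0.07 (SE) on the log2 scale, with a 95% interval of -0.17 to 0.14 (limma, adjusted p = 0.959). In bulk tissue, fewer cells of a type and less RNA per cell cannot be told apart. Its receptor gene Cx3cr1, a microglial marker, stood at 6.77, 6.89, 6.73 and 6.83 under the label TNF-/- and at 6.89, 6.84, 6.87 and 7.01 under TNF+/+, and also overlapped.

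Cxcl12, made by vessels, meninges and some neurons, stood at 6.41, 6.54, 6.63 and 6.55 in the arrays labelled TNF-/- and at 6.54, 6.57, 6.58 and 6.60 in those labelled TNF+/+. The 4 wild-type values lay inside the range of the other group. Its difference was -0.04 ± 0.06 (SE; limma, adjusted p = 0.825), while the meningeal fibroblast mean given above was higher under TNF-/-; its part in the Cxcl12 signal was not tested. Cxcr4, its signalling receptor, was 5.87, 6.12, 6.30 and 6.17 under TNF-/- and 5.84, 5.74, 6.31 and 5.81 under TNF+/+. TNF+/+ array 3 was the highest of all, and the other 3 wild-type arrays were below all 4. The difference of 0.19 ± 0.14 (limma, adjusted p = 0.638) was 0.32 without TNF+/+ array 3 and did not pass there either (limma, adjusted p = 0.457). Ackr3, the other receptor for Cxcl12, which clears it without G protein signalling, was below the median in every array, between 3.98 and 4.49, and was also highest in TNF+/+ array 3.

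Cxcl14, a ligand of inhibitory neurons and epithelia, stood at 8.24, 8.16, 8.22 and 8.15 in the arrays labelled TNF-/- and at 7.95, 8.14, 8.14 and 8.14 in those labelled TNF+/+. The groups did not overlap, but by a gap of only 0.0023, and TNF+/+ array 1, the array rich in cerebellum genes, was the low one. Its difference was 0.10 ± 0.06 (SE; limma, adjusted p = 0.581), and 0.05 without TNF+/+ array 1. Of the 7 neuronal markers, 5 were higher and 2 lower under TNF-/-, and none passed over all probe sets. Gad2, an enzyme of GABA synthesis in inhibitory neurons, was 10.15, 10.20, 10.38 and 10.32 under TNF-/- and 9.93, 9.98, 9.93 and 9.95 under TNF+/+. It was higher without overlap, by 0.32 ± 0.06 (SE; limma, adjusted p = 0.172), and Gad1, which makes the same product, by 0.26 ± 0.10 with overlap (adjusted p = 0.405). Slc17a7, the glutamate transporter of excitatory neurons, differed by -0.19 ± 0.07 (limma, adjusted p = 0.412). The part of these genes and of the cerebellum genes in the Cxcl14 difference was not tested.

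Ccl25, the thymic and gut ligand of Ccr9, has a pair of probe sets that disagreed. The brighter, which stands for the gene, gave 5.26, 5.35, 5.48 and 5.57 under TNF-/- and 5.30, 5.55, 5.38 and 5.34 under TNF+/+. The groups overlapped, with a difference of 0.02 ± 0.09 (SE; limma, adjusted p = 0.939). The dimmer gave 5.32, 5.79, 5.74 and 5.25 under TNF-/- and 4.90, 5.04, 5.22 and 4.90 under TNF+/+. It separated the groups, with a difference of 0.51 ± 0.14 that did not pass over all probe sets (limma, adjusted p = 0.286). The sources used here do not say which transcripts each measures, so Ccl25 is uncertain. Its receptor gene Ccr9 was below the median in all arrays.

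**Figure D1:**
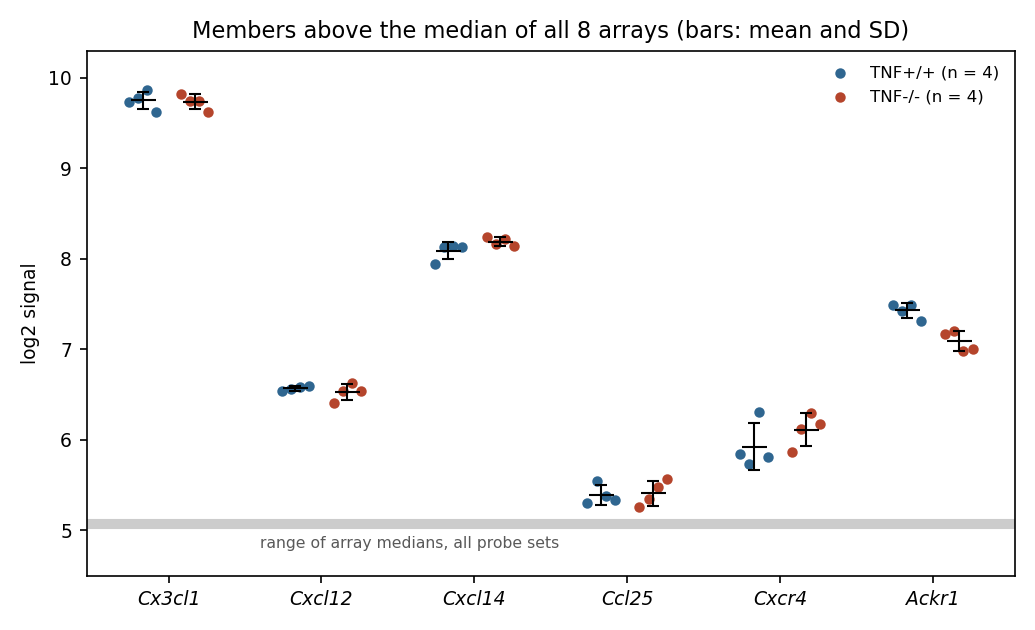
Log2 signal of the 6 family genes above the median of all 8 arrays, 1 point per array, with the mean and SD of the 4 arrays labelled TNF+/+ and the 4 labelled TNF-/-. The grey band is the range of array medians, 5.03 to 5.11; only Ackr1 shows a clear gap between the groups, with 7.32 to 7.49 against 6.99 to 7.20.

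Against this background the groups were compared. None of the 52 genes passed at an adjusted p under 0.05, by limma over all 35556 probe sets, which called 29 of them (0.0816%). Significance Analysis of Microarrays (SAM), the test named by the study's design, called 53 probe sets (0.149%) and none of the family. At an unadjusted p under 0.05, 1 family gene was higher and 2 were lower in the arrays labelled TNF-/- (1.92% and 3.85% of the family), against 5.92% and 4.9% of all probe sets. These shares are not above the background. The groups did not overlap for 2 genes that were higher (3.85%, against 3.15% of all probe sets) and 4 that were lower (7.69%, against 3.48%).

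The measurement was tight enough to bound the differences. Standard errors ran from 0.05 to 0.15, and 39 of the 52 differences were under 0.1 in size on the log2 scale. For 50 genes the 95% interval lay within 0.5 of zero in both directions, the exceptions being Ackr1 and Cxcr4. These bounds concern the array signal, which for a dim probe set can move less than its transcript.

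**Figure D2:**
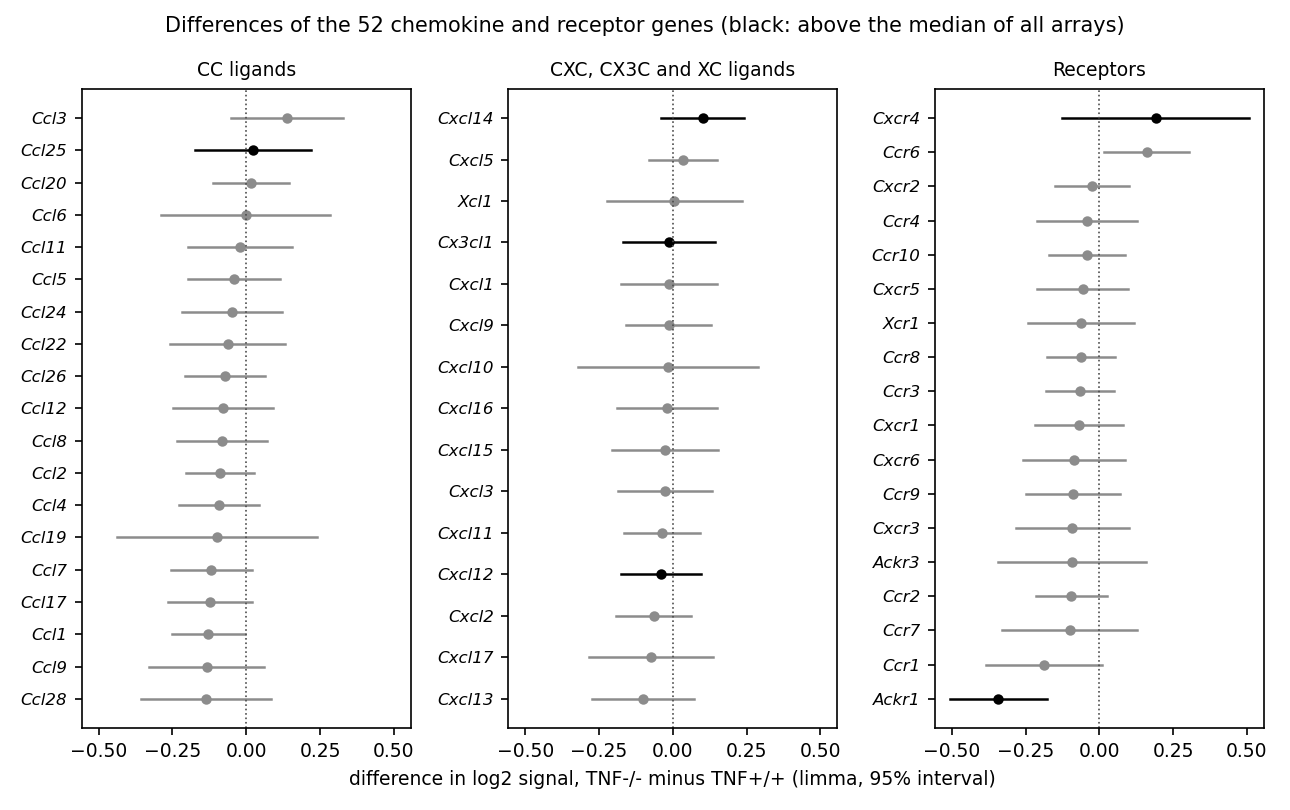
Difference in log2 signal, arrays labelled TNF-/- minus arrays labelled TNF+/+ (4 arrays each), for all 52 genes in 3 panels by role; points are limma estimates and lines their 95% intervals, black for the 6 genes above the median of all arrays. Ackr1 at -0.34 is the only gene more than 0.2 from zero.

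Ackr1 gave the largest difference. It encodes the Duffy antigen receptor, which binds many inflammatory chemokines and is known from red blood cells, the endothelium of small veins and Purkinje cells. Its log2 signal was 7.17, 7.20, 6.99 and 7.00 in the arrays labelled TNF-/- and 7.49, 7.43, 7.49 and 7.32 in those labelled TNF+/+. All 4 arrays of the first group lay below all 4 of the second, with a gap of 0.12. The means were 7.09 ± 0.11 and 7.43 ± 0.08 (SD, n = 4), a difference of -0.34 ± 0.07 (SE) with a 95% interval of -0.51 to -0.18, or a 1.27-fold higher signal under the label TNF+/+. It did not pass over all probe sets (limma, adjusted p = 0.202). The exact two-sided permutation p of this 1 gene was 0.0286, the smallest that 4 against 4 can give. Every gene whose groups do not overlap gets this value, so it adds nothing to the lack of overlap.

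The signal of Ackr1 may not be that of 1 gene alone. In the RefSeq annotation Ackr1 lies almost wholly (99.6% of its length) inside the interval of Cadm3, on the same strand of chromosome 1, and the sources used here do not give the probes' positions. Cadm3 encodes a neuronal adhesion molecule, and it was lower in the same arrays. Its log2 signal was 8.94, 8.96, 8.96 and 8.95 under TNF-/- and 9.13, 9.12, 9.20 and 9.17 under TNF+/+, again without overlap. The difference was -0.20 ± 0.05 (SE; limma, adjusted p = 0.238). Whether Cadm3 transcripts contribute to the Ackr1 signal was not tested.

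Genes further out were mostly dim. Of the 20 measured genes nearest to Ackr1, 10 on each side, chosen after its values were seen, 18 were below the median of all 8 arrays and 1, Cadm3, was above it in all 8. At an unadjusted p under 0.05, 2 of the 20 were lower under TNF-/- and 0 higher, against 4.9% and 5.92% of all probe sets. They were Cadm3 and Ifi207, a gene of the interferon-inducible Ifi200 cluster. Ifi207 differed by -0.28 ± 0.09 SE (limma, adjusted p = 0.361). Catspere2, which was higher under TNF-/- by 1.14 ± 0.09 (limma, adjusted p = 0.0119), lies 43 measured genes away on the same chromosome.

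Markers of cells that can carry Ackr1 were read beside it. The 2 of 7 red blood cell markers measured, Alas2 and Slc4a1, had a mean of 3.98 to 4.43 in the arrays labelled TNF-/- and of 4.32 to 4.74 in those labelled TNF+/+; Slc4a1 lay below the median of every array and Alas2 above it in 2. The mean of 9 endothelial markers ran from 6.60 to 6.74 and from 6.57 to 6.77. That of 8 cerebellum genes, which include the Purkinje cell genes Pcp2 and Calb1, ran from 6.39 to 6.53 and from 6.37 to 7.79. The endothelial and cerebellar ranges overlapped widely, and the red cell ranges in part. Both red cell markers were lower under TNF-/- (-0.43 and -0.19), 1 of them at an unadjusted p under 0.05 by limma, and 0 passed. Of the endothelial markers 4 were higher and 5 lower, and of the cerebellum genes 2 were higher and 6 lower. The part of these cells in the Ackr1 difference was not tested. Without TNF+/+ array 1 the difference of Ackr1 was -0.32.

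**Figure D3:**
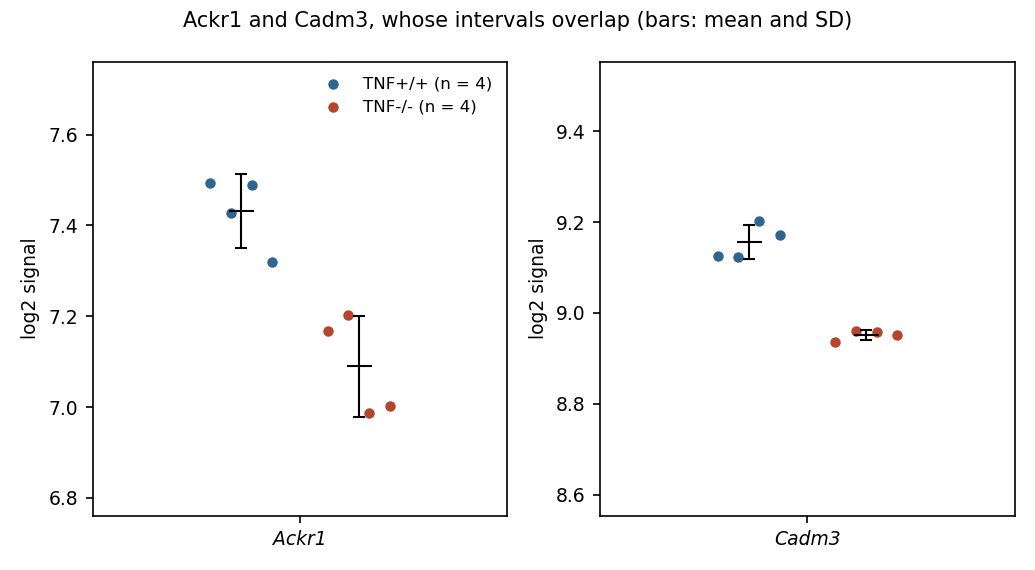
Log2 signal of Ackr1 (left) and of Cadm3 (right), whose annotated interval contains nearly all of Ackr1, 1 point per array with the mean and SD of each group of 4; both vertical axes span the same log2 distance. In both panels the arrays labelled TNF-/- lie below those labelled TNF+/+, by a mean of 0.34 for Ackr1 and 0.20 for Cadm3.

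Among the ligands listed as inflammatory no gene stood out. Ccl1 is not on that list and is given further below. Of the 17 on a list of ligands known to be induced in inflammation, 16 were below the median of all 8 arrays. Cx3cl1 was the other, and none of the 17 had an unadjusted p under 0.05. As deposited 14 of the 17 were lower under TNF-/-, with a median difference of -0.02. That of all probe sets was -0.01, and that of probe sets below the median of all 8 arrays was -0.04. After quantile normalization 7 of the 17 were lower, and the medians were 0.01, -0.0021 and -0.0060. Ccl2, the main monocyte attractant and a classic TNF target, was 3.55, 3.57, 3.56 and 3.58 under TNF-/- and 3.65, 3.58, 3.72 and 3.67 under TNF+/+. The groups did not overlap, by a gap of 0.0019, and the difference was -0.09 ± 0.05 (SE; limma, adjusted p = 0.552).

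The ligands whose upstream sequence is printed above with an NF-kB match gave overlapping groups. Cxcl1 ran from 4.01 to 4.12 under TNF-/- and from 3.94 to 4.22 under TNF+/+, and Cxcl2 from 3.29 to 3.43 and from 3.35 to 3.49. Cxcl3 ran from 3.96 to 4.22 and from 4.03 to 4.16, and Ccl20 from 3.56 to 3.71 and from 3.56 to 3.69. Cxcl10, an interferon-induced T cell attractant, varied more, from 3.84 to 4.42 under TNF-/- and from 3.86 to 4.22 under TNF+/+. In all 5 the groups overlapped, with differences between -0.06 (Cxcl2) and 0.02 (Ccl20). Of the other 4 genes with a match, Ccl9, a macrophage ligand, differed by -0.13 ± 0.09 (SE; limma, adjusted p = 0.593) and Ccr3, the eosinophil receptor, by -0.07 ± 0.05 (adjusted p = 0.661), both with overlap. Ccl1 and Ccr6 are the other two.

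Ccl1, a T cell product that binds Ccr8, also carries an NF-kB match and is not on the list of inflammatory ligands. It was 3.73, 3.69, 3.77 and 3.60 under TNF-/- and 3.79, 3.84, 3.85 and 3.82 under TNF+/+. The groups did not overlap. Its difference was -0.13 ± 0.05 (SE) at an unadjusted p of 0.0436 (limma, adjusted p = 0.449), at signals below the 25th percentile of every array. After quantile normalization it was -0.08 (limma, adjusted p = 0.664). The unadjusted p was under 0.05 in 6 of 17 limma alternatives, and of those that leave out 1 array only in that without TNF-/- array 3. Ccl3 and Ccl4, paired macrophage ligands with overlapping annotated intervals, differed by 0.14 ± 0.08 and -0.09 ± 0.06, and where their probes lie in the shared stretch is unknown, so both values are uncertain.

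The homeostatic ligands, which place cells in resting tissue, gave 3 of 8 above the median of all arrays (Cxcl12, Cxcl14 and Ccl25). Ccl19, a lymphoid ligand of Ccr7, was the 1 family gene above the median in some arrays only, reaching 5.30 in TNF+/+ array 3. None of the 8 had an unadjusted p under 0.05. The median difference was -0.08 as deposited, with 6 of 8 lower under TNF-/-, and -0.07 after quantile normalization, with 7 of 8 lower. Over all probe sets the medians were -0.01 and -0.0021.

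Among receptors, Ccr6, the receptor of Ccl20 on lymphocytes, was the 1 gene higher in the arrays labelled TNF-/- at an unadjusted p under 0.05. It has a pair of upstream windows, of which 1 holds an NF-kB match and the other none. It was 3.73, 3.67, 3.61 and 3.59 under TNF-/- and 3.47, 3.59, 3.52 and 3.37 under TNF+/+. The groups missed each other by 0.0011. The difference was 0.16 ± 0.06 (SE) at an unadjusted p of 0.0342 (limma, adjusted p = 0.429), again at signals below the 25th percentile. The unadjusted p was not under 0.05 without TNF-/- array 1, TNF-/- array 2, TNF+/+ array 1 or TNF+/+ array 4.

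Ccr2, the Ccl2 receptor of monocytes that enter tissue from blood, was 4.60, 4.49, 4.54 and 4.62 under TNF-/- and 4.62, 4.64, 4.72 and 4.65 under TNF+/+. All wild-type arrays were higher, by a gap of 0.0046, and the difference was -0.10 ± 0.05 (limma, adjusted p = 0.551). The mean of 7 neutrophil and monocyte markers ran from 3.62 to 3.68 under TNF-/- and from 3.71 to 3.79 under TNF+/+. All 7 were below the median of every array and lower under TNF-/- without passing, also after quantile normalization. Of all probe sets below the median of every array, 70.5% were lower as deposited and 53.2% after quantile normalization. The part of these markers in the Ccr2 difference was not tested. Ccr1, a receptor of Ccl3 and Ccl5, differed by -0.19 ± 0.09 (limma, adjusted p = 0.481) and its groups overlapped.

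Small negative differences ran through the dim members. Of the 52 differences 44 were negative, with a median of -0.06. Without TNF+/+ array 3 35 were, with a median of -0.04, where the median of all probe sets was -0.01. The 25th percentile of signal was itself lower in the arrays labelled TNF-/- (3.95 to 3.97, against 4.00 to 4.04), and of the 15912 probe sets below the median of all 8 arrays 70.5% were lower under TNF-/-, with a median of -0.04. Among the 45 family genes in that class 40 were lower (88.9%), with a median of -0.06. After quantile normalization, which gives all arrays the same distribution, 28 of the 45 were lower (62.2%, against 53.2% of the dim probe sets) and the medians were -0.03 and -0.01. The split by role moved with it: of 13 CXC ligands 11 were lower as deposited and 4 after quantile normalization. Of 19 CC ligands 16 and 15 were lower.

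Family genes sit in clusters, so they need not vary independently. Chromosome 11 holds 14 of the 52, chromosome 5 holds 11 and chromosome 9 holds 9. All 9 on chromosome 9 are receptors and all 9 differences were negative (-0.19 to -0.04), or 8 of 9 after quantile normalization; all 9 genes are dim. Of the 11 Ccl genes on chromosome 11 10 were lower, or 8 after quantile normalization. Of the 9 Cxcl genes on chromosome 5 8 were lower, or 2 after quantile normalization.

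**Figure D4:**
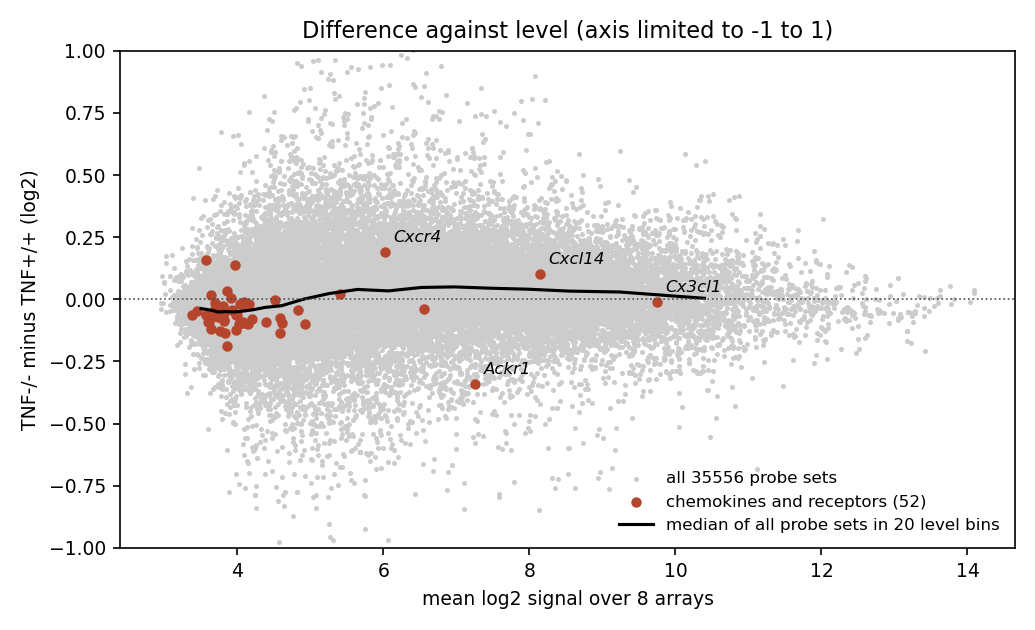
Difference in log2 signal (arrays labelled TNF-/- minus TNF+/+) against the mean log2 signal over 8 arrays, for all 35556 probe sets (grey; 50 lie beyond the axis limits) and the 52 family genes (red). The black line is the median of all probe sets in 20 bins of level: it lies below zero where most of the family sits, and Ackr1 lies far below it.

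Partners of the receptors were mostly brighter than the family. Of 24 measured genes that transmit or limit chemokine signals (of 26 listed), 16 were above the median of all 8 arrays. None passed at an adjusted p under 0.05. At an unadjusted p under 0.05, 5 of the 24 (Grk3, Elmo1, Adam17, Grk5 and Adam10) were higher under TNF-/- and 0 lower. Of all 35556 probe sets 2104 (5.92%) were higher and 1741 (4.9%) lower. Dim probe sets pull the first share down, as only 240 of the 15912 below the median of all 8 arrays were higher. Most of the 24 genes are bright, so 5.92% is not a like background for them. Grk3, a kinase that switches off activated receptors, was 7.15, 7.10, 7.09 and 6.99 under TNF-/- and 6.80, 6.92, 6.77 and 6.95 under TNF+/+. It differed by 0.22 ± 0.06 (SE; limma, adjusted p = 0.313), as did its relative Grk5 by 0.22 ± 0.08 (adjusted p = 0.395). Elmo1, a part of the Rac activator complex in cell migration, differed by 0.22 ± 0.07 (limma, adjusted p = 0.328).

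Adam17 and Adam10 encode the proteases that shed Cx3cl1 from neurons, and Adam17 also releases TNF. Adam17 was 6.98, 7.01, 7.03 and 7.02 under TNF-/- and 6.91, 6.84, 6.86 and 6.65 under TNF+/+, without overlap. It differed by 0.20 ± 0.07 (SE; limma, adjusted p = 0.372), and Adam10 by 0.19 ± 0.07 (adjusted p = 0.409). The median over the 24 genes was 0.06, or 0.04 after quantile normalization. That of all probe sets left after dropping the dim ones was 0.03 as deposited. The sets are not alike, as 7 of the 24 genes lay below the median of every array. Of 10 measured relatives outside the rule, among them Cx3cr1, Ackr2, Pf4 and Mif, none had an unadjusted p under 0.05.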

How the data were processed

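Deposited values were used as the authors made them: a log2 signal per probe set and array, on a scale read from the values (2.83 to 14.1). GCOS, GCRMA and Partek stand in the submitters' processing notes with neither version nor role. Of the genome build, the sources used here say nothing. 0 columns were unused and no arrays were identical.

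Of 35556 probe sets, 21789 pair with 1 gene symbol. Left out were 7 that pair with several symbols, at least 1 of them a chemokine or receptor symbol. Members and lists were chosen with earlier results of these data known. The 2 groups were tested in R 4.3.3 by limma 3.58.1 (lmFit, eBayes; no filter; p two-sided and adjusted by Benjamini-Hochberg across every probe set) and, as an alternative, SAM rebuilt with all 70 assignments (s0 0.0357, estimated false discovery rate 4.49%). Both were tested on simulated data.

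Values were given for genes above the median of all arrays, at an unadjusted p under 0.05 or without overlap between groups, and for the brightest gene of each role. Genes with an upstream NF-kB match, and some others picked after values were seen, were named beyond this rule. Alternatives were other filters, scalings, variance models, array weights, a replicate block, other probe sets and left-out arrays. Plots used matplotlib 3.10.9 in Python 3.11.15. The number of arrays, 4 per group, limits precision.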

Additional observations from a re-analysis of the deposited data

Results flagged for a closer look

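Of 56 groups of 4 arrays checked, 6 held 1 array far from the rest, where chance gives about 1 in 20. Among the family genes checked, which were only part of the 52, this was Cxcl14 in TNF+/+ array 1 (7.95, the lowest). The others were marker means: astrocytes in TNF-/- array 3 (9.55) and in TNF+/+ array 4 (9.53), oligodendrocytes in TNF-/- array 4 (9.60), microglia in TNF-/- array 4 (5.87, the lowest) and cerebellum genes in TNF+/+ array 1 (7.79). The low Cxcl14 and the high cerebellum mean belong to the same array.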

How the results depend on the processing

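No family gene passed under any of the 19 alternatives run, SAM included. Ackr1 stayed lower in all of them (-0.38 to -0.31), at an unadjusted p under 0.05 in each of the 18 limma fits (adjusted p = 0.0951 to 0.458). The count of genes above the median of every array was 5 or 6. Probe sets called over the whole table were 63 when only those with 1 gene symbol were tested, 53 by SAM, 0 without TNF+/+ arrays 3 and 4, 0 with the replicate number as a block, and 1 (without TNF+/+ array 3) to 20 (without TNF+/+ array 1) with 1 array left out. The family's count at an unadjusted p under 0.05, 3 as reported, was 1 when dim probe sets were left out (6 family genes remain), 5 with median centring and 6 with a trended variance; with 1 array left out it was 1 (without TNF-/- array 2 or TNF+/+ array 1) to 4. Genes without overlap, 6 as reported, were 6 to 9 with 1 array left out, 2 without dim probe sets, 2 after quantile normalization and 14 without TNF+/+ arrays 3 and 4, where fewer arrays make a gap easier. The median difference was 0.0049 without dim probe sets and -0.026 after quantile normalization. Differences near zero changed sign. Ccl25 was -0.0022 after quantile normalization, -0.012 without TNF+/+ arrays 3 and 4, and -0.030 to 0.075 with 1 array left out (-0.0070 without TNF+/+ array 1). The choice of probe set moved Ccl25 most. It was 0.27 with its probe sets averaged (limma, unadjusted p = 0.0153, adjusted p = 0.359). From the dimmer probe set alone it was 0.51 (limma, unadjusted p = 0.00585, adjusted p = 0.286). With 1 array left out Cx3cl1 ran from -0.053 to 0.025 (positive without TNF-/- array 4 or TNF+/+ array 3) and Cxcl12 from -0.075 to 0.00045 (positive without TNF-/- array 1). Same-numbered arrays deviated together weakly (r across probe sets 0.07 to 0.11, with 6 of 8 arrays closest to their own number), the labels do not tie the numbers to a litter or day, and the replicate block called no family gene (Ackr1 adjusted p = 0.269). Low signal limits what the dim members can show.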

Other observations

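Ccl19 varied most across the arrays among the 52 genes, over 0.69 on the log2 scale, without following the groups. It was 5.02, 4.73, 4.70 and 5.04 in the arrays labelled TNF-/- and 4.94, 5.04, 5.30 and 4.61 in those labelled TNF+/+. Its 5 probe sets gave differences of -0.11 to -0.09. TNF+/+ array 3 held the highest value of 19 of the 52 genes, Ccl19, Cxcr4 and Ackr3 among them, and TNF-/- array 4 the lowest of 11. In the RefSeq annotation 17 of the 52 genes overlap another gene and 9 a protein-coding one; Cxcl10 and Cxcl11 lie wholly inside Art3 and Cxcr6 inside Fyco1.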
